A study of Apis mellifera with 12 samples.

Results

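The genes described here were measured far higher in whole-brain RNA of honeybee (Apis mellifera) queens than of workers. They were chosen by 1 rule from 6 bulk libraries, 2 each of queens, nurses and foragers. After Mrjp1 to Mrjp9, the major royal jelly protein genes, had been taken out, each bulk library was scaled to CPM (counts per 1000000 counts). A gene was a member when both queen libraries held at least 10 CPM of it and the lower queen value was at least 6 times the highest value of the 4 worker libraries. Of 11345 genes in the table, 116 were members. The rule passes over 9 genes by name (Vg, A4, ACSF2, Apid1, Def1, LOC406142, LOC406144, LOC408807 and LOC408961). Bulk queen and worker values chose the members, so these are given as a description and without a test. Tests were run only on 6 single-cell libraries, again 2 per caste, and on nurses against foragers, which the rule did not compare.

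All samples were adult brains without a genetic change or a drug treatment. Queens were mated, having been reared and inseminated artificially. Nurses were workers seen to enter cells and feed larvae, foragers were workers carrying pollen on the hind legs, and both kinds came from 1 colony. Each library pooled the brains of several bees, so the spread between single bees was not measured, and p-values reflect only the spread between pools. Queens and workers also differed in rearing, and caste cannot be told apart from rearing, colony or age. For the single-cell libraries brains were dissociated with papain, and pieces that stayed undigested were spun out before loading, whereas for bulk libraries whole brains were homogenised directly.

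Queens and workers of the honeybee develop from the same kind of egg. A queen lays the eggs of the colony, and workers pass from nursing to foraging. The insect brain holds neurons, among them the Kenyon cells of the mushroom bodies, which serve learning and memory, and the olfactory projection neurons (OPNs), which relay odour signals. Glia surround these neurons, and hemocytes, the blood cells, lie on or near the brain. Fat body, the insect counterpart of liver and adipose tissue, makes vitellogenin (Vg), the yolk protein, and secretes many proteins of the blood, among them immune recognition proteins and proteins that carry small molecules. Fat body also lies in the head, close to the brain.

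Bulk libraries held between 13135057 and 15177035 counts. After filtering, the single-cell libraries held between 16761 and 20988 cells each, 115169 in all, with medians of 4531.5 to 5729 unique molecular identifiers (UMIs) per cell. Among the kept cells, 1549 barcode sequences, 1.36% of the distinct ones, occurred in more than 1 library. Royal jelly protein genes took 41.8% of the counts of the first nurse bulk library but 0.00811% of those of the first queen library, which is why the rule leaves them out of the scaling. Summed markers of fat body were 73960 and 66491 CPM in the bulk queen libraries and between 1175 and 2784 CPM in the bulk worker libraries. Most of that sum was Vg, at 65805 and 57522 CPM in queens and between 54.6 and 747 CPM in workers. The 6 genes of this list did not move together in bulk. Both queens lay above all workers for 2 of them, Vg and LOC408961. They lay below all workers for 1, Hex110, at 11.032 and 11.353 CPM against 14.384 to 173.5 CPM. Hex70a, HEX70b and Hex70c overlapped between queens and workers. In single cells the same list reached 102.5 and 38.9 CPM in queens against 33.3 to 52.7 CPM in workers. Of its 6 genes there, Vg was at 66.0 and 12.7 CPM in queens and between 0.416 and 1.07 CPM in workers, LOC408961 at 17.2 and 8.94 CPM against 20.2 to 45.6 CPM, and the other 4 at no more than 9.71 CPM in any library. Summed glial markers were 30487 and 31654 CPM in the bulk queen libraries against 16181 to 21964 CPM in workers, but the 9 genes did not move together. Both queens lay above all workers for 3 of them, among them Tsf1 (17106 and 19714 CPM against 5287 to 8882 CPM), which made up most of the sum, and below all workers for 4, among them GlnS (2069 and 1673 CPM against 4101 to 5584 CPM). The gene of repo, which defines glia, overlapped, at 310.01 and 216.4 CPM against 269.2 to 439.1 CPM. Summed hemocyte markers overlapped as well, at 1501 and 1331 CPM in queens against 1203 to 1722 CPM in workers. Levels of these lists stand beside every bulk difference given here, and their part in it was not tested. In bulk, more cells of a type and more RNA per cell cannot be told apart.

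Of the 116 members, 107 were annotated as protein coding and 9 as long noncoding RNA (lncRNA). Few carried a gene name: Obp14 and Obp3 (odorant binding proteins, which carry small hydrophobic molecules), CPR14 (a cuticle protein), Jhe (juvenile hormone esterase, which breaks down juvenile hormone), PGRP-S3 (a short peptidoglycan recognition protein of the immune response), B-gluc1 (a recognition protein for beta-1,3-glucan of fungal walls) and Akhr (the receptor of adipokinetic hormone, which releases stored fuel). LOC725380 is described as a chymotrypsin inhibitor and LOC725074 as an omega-conotoxin-like protein. Other members have only a locus number in the sources used here, and no role is given to them. Members lay on all 16 chromosomes, between 4 on chromosome 9 and 13 on chromosome 1. Chromosome 16 had the largest share of its genes in the set, 8 of 361 or 2.22%. Their median span was 4509 bases, against 4234 bases for the other genes at 10 CPM or more in both queen libraries.

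Together the members took 6.95% and 9.23% of the bulk counts outside the royal jelly protein genes in the queen libraries, and between 0.336% and 0.496% in the worker libraries. In 19 of them both bulk queen libraries reached 1000 CPM, another 53 lay between 100 and 1000 CPM in the lower queen library, and 44 lay under 100 CPM. The ratio of the lower queen to the highest worker value, the measure of the rule, had a median of 10.7. It was under 10 for 52 members and at least 50 for 8. The bulk queen libraries differed from each other by a median ratio of 1.32, and 83 members were higher in the second. Among workers the second nurse library held the highest value for 47 members and the first for 17, and the first and second forager libraries for 31 and 21. The same share over all genes was not computed.

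LOC406105 was the most abundant member. Its bulk level was 8461 and 13053 CPM in the queen libraries, 70.3 and 382.7 CPM in the forager libraries and 37.4 and 8.1 CPM in the nurse libraries. Workers thus ranged widely, and the higher forager library set its ratio of 22.1. LOC725380, the chymotrypsin inhibitor, stood at 3809 and 5170 CPM in queens, 154.0 and 148.2 CPM in foragers and 183.2 and 420.4 CPM in nurses. LOC725074, the omega-conotoxin-like gene, lay close to the limit of the rule, with 3348 and 4253 CPM in queens against 528.6 and 427.4 CPM in foragers and 367.7 and 546.9 CPM in nurses. The next 9 by mean queen level were LOC726625, LOC550687, LOC551560, LOC725387, LOC107963996, LOC409801, LOC408603, LOC100576326 and LOC725305, with 1636 to 4360 CPM in single queen libraries and 7.59 to 302.4 CPM in single worker libraries. LOC107963996 had the lowest worker levels of these 9.

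**Figure D1:**
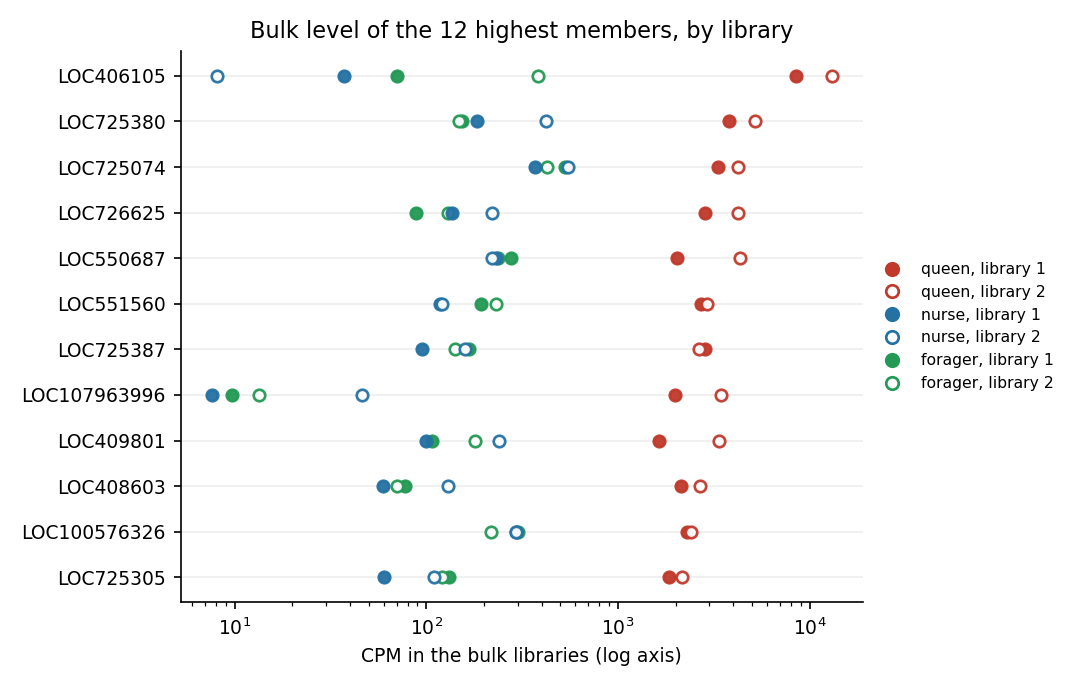
Bulk CPM (log axis) of the 12 members with the highest mean queen level, 1 row per gene and 1 point per library, filled for library 1 and open for library 2. These values chose the genes; queen points of LOC406105 lie at 8461 and 13053 CPM, and its worker points spread from 8.1 to 382.7 CPM.

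The largest ratios belonged to genes that were almost silent in worker bulk RNA. LOC102654766 was at 398.1 and 633.0 CPM in queens and at no more than 0.377 CPM in any worker library, a ratio of 1057. LOC112935903 was at 1854 and 1986 CPM in queens and between 0.232 and 2.49 CPM in workers, a ratio of 743.8. LOC107964258, picked out after its values were seen, came next, at 255.7, with 215.8 and 192.7 CPM in queens and at most 0.754 CPM in workers. The ratio of LOC100578247 was 143.8, with 140.3 and 156.8 CPM in queens and under 1 CPM in every worker library. LOC724418 had 489.2 and 716.6 CPM in queens and 1.70 to 5.28 CPM in workers. Part of the reads of LOC112935903, and of its neighbour LOC102653899 (581.8 and 841.5 CPM in queens, 0 to 8.12 CPM in workers), had been divided among similar sequences, since their expected counts are not whole numbers, so the level of each alone is uncertain. Such counts in a queen library occurred for 12 members (10.3%), LOC107964258 included, against 9.34% of the other genes at 10 CPM or more in both queen libraries.

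Obp14 stood at 1363 and 2067 CPM in queens, 2.24 and 5.53 CPM in foragers and 33.3 and 102.3 CPM in nurses, so nurses and foragers did not overlap either. Obp3 had 1174 and 2083 CPM in queens against 15.8 to 100.5 CPM in workers. Both odorant binding protein genes were highest among workers in the second nurse library. B-gluc1 was alike in both queen libraries, at 1435 and 1432 CPM, and lay between 166.4 and 203.9 CPM in workers. CPR14 had 996.7 and 1624 CPM in queens and 61.7 to 137.8 CPM in workers, and Jhe 436.1 and 589.0 CPM against 11.9 to 55.5 CPM. PGRP-S3 (249.5 and 289.3 CPM against 24.8 to 40.6 CPM) and Akhr (50.3 and 53.3 CPM against 2.94 to 7.65 CPM) lay just above the limit. Just inside it were LOC551197 (6.07), LOC725074 (6.12) and LOC726733 (6.14), and just outside were LOC107964635 (5.94), LOC100578814 (5.92) and LOC727247 (5.80).

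In single cells the members were scarce. All 116 had a feature in the single-cell files, and 110 had a UMI in every library. Summed over the kept cells of a library, the median member had 2.06 CPM in queens and 1.04 CPM in workers, and the highest queen mean was 46.8 CPM. Members took 0.0664% and 0.0498% of the UMIs in the queen libraries and between 0.0369% and 0.0543% in the worker libraries, so the second queen library lay within the range of the workers. The bulk level in queens exceeded the single-cell level by a median of 123 times, and by over 10 times for 103 members (88.8%). For the 7109 other genes at 10 CPM or more in both bulk queen libraries the median was 1.01, and 7.95% of them exceeded 10. In workers the median was 6.88 for members and 1.10 for the others. The ratio of queens to workers fell from a median of 18.6 in bulk to 1.51 in single cells, and 37 members (31.9%) had a lower mean in queens, against 61.5% of the other 7109 genes. Because a bulk ratio chose the members, these medians carry no test.

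**Figure D2:**
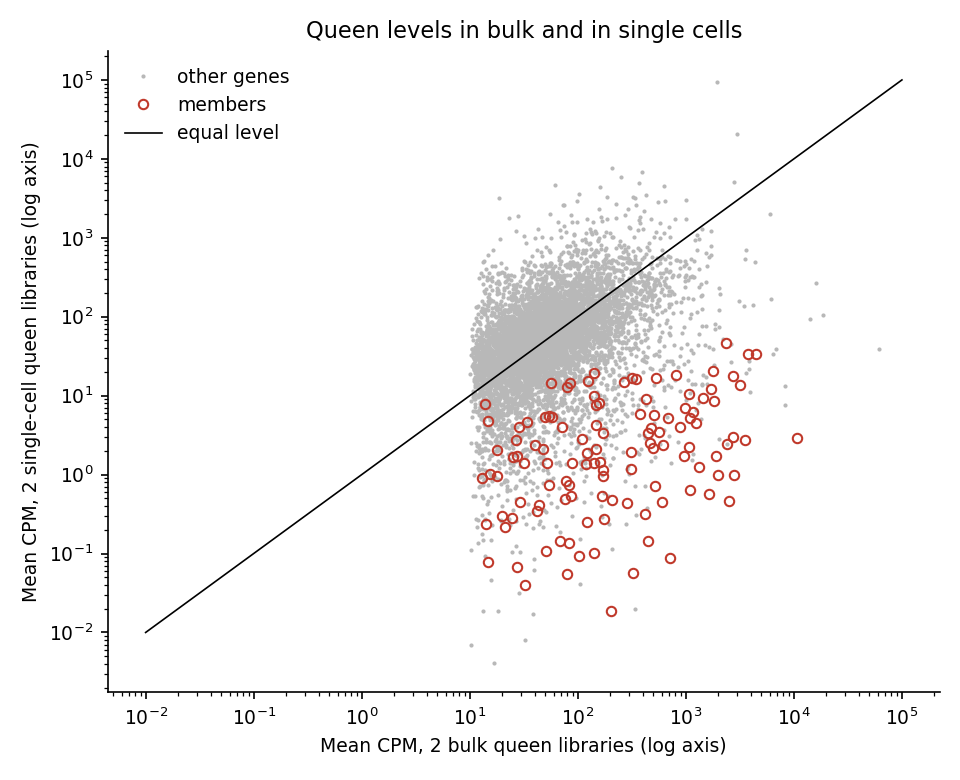
Mean queen CPM in bulk (x, log axis) and in single cells summed over all kept cells (y, log axis) for the 116 members (open circles) and the other genes at 10 CPM or more in both bulk queen libraries (dots). The line marks equal levels; every member lies below it, with a median bulk level 123 times the single-cell level.

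This gap, which includes the bulk level itself, had a median of 272 for the 19 members at 1000 CPM or more in both bulk queen libraries, 163 for the 53 members between 100 and 1000 CPM and 37.9 for the 44 members below. LOC406105, first in bulk, had 3.20 and 2.67 CPM in the single-cell queen libraries, 0.252 and 0.208 CPM in foragers and 0.364 and 0.301 CPM in nurses. Queens were thus far above workers in both assays, at very different levels. LOC725380 behaved otherwise, with 37.3 and 30.03 CPM in queens, 25.7 and 59.0 CPM in foragers and 62.9 and 62.8 CPM in nurses. Its castes overlapped, and its log2 change of queens over workers was -0.55 ± 0.30 (SE) with an adjusted p of 0.171 in edgeR's quasi-likelihood test.

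Queens were then tested against the mean of nurses and foragers over all kept cells (edgeR, 6 libraries, called at an adjusted p under 0.01 and a log2 change over 0.5 in size). Of 11158 genes tested, 8.85% were called higher and 6.58% lower in queens. Of the 116 members, 111 passed the filter on low counts, which a gene high in queens alone can pass. Of these, 35 were called higher in queens and 4 lower, and without the filter the counts over all 116 were also 35 and 4. Another 72 tested members were not called. The median log2 change was 0.58 over the tested members and 0.00 over all genes tested. Both queen libraries lay above all 4 worker libraries for 55 members (47.4%, against 20.6% of all features with a UMI) and below them for 12 (10.3%, against 30.0%). The count of 35 higher fell to 22 without forager library 1, to 18 without nurse library 1, to 18 without nurse library 2 and to 16 without queen library 1. The count of 4 lower fell to 2 without forager library 2 and without either nurse library, to 0 without queen library 1 and to 1 without queen library 2. Without hemocyte-like cells, described below, the counts were 37 and 4, and without glia-like cells as well 39 and 5. Shares of all genes called with a library or cells left out, here and within 1 cell class below, are not given. A loss of member calls thus cannot be told apart from a loss of calls over all genes.

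Among the members higher in queens, LOC112935903 had the largest change. It had 1.55 and 1.91 CPM in queens, 0 and 0.0434 CPM in foragers and 0.0363 and 0.00880 CPM in nurses, a log2 change of 6.29 ± 0.55 (adjusted p = 0.000617, edgeR). With at most 5 UMIs in any worker library, it passed the filter through queens alone. Obp14 followed with 20.9 and 3.67 CPM in queens, 0.0782 and 0.469 CPM in foragers and 0.209 and 0.133 CPM in nurses. Its queen libraries were far apart, and its log2 change of 5.90 ± 0.77 (adjusted p = 0.00180) was no longer called without nurse library 1 or without nurse library 2. LOC100576326 was the member with the highest single-cell level in queens, 61.2 and 32.4 CPM against 2.14 to 3.83 CPM in workers, and rose by 4.07 ± 0.33 on the log2 scale (adjusted p = 0.000406). LOC406105 rose by 3.47 ± 0.23 (adjusted p = 0.000277), with the lowest adjusted p of the set. Both of these, and LOC112935903, were among the 13 of 39 called members that were called without each library in turn.

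Others rose from very low levels. LOC102654766 had 1.25 and 0.163 CPM in queens and 0.0261 to 0.0727 CPM in workers (log2 change 3.85 ± 0.77, adjusted p = 0.00725). Its queen libraries were far apart, and the call was lost without any 1 of 5 libraries, all but the second queen library. LOC100578247 rose by 3.31 ± 0.29 (5.31 and 3.08 CPM against 0.382 to 0.539 CPM) and LOC724418 by 3.16 ± 0.47 (0.372 and 0.521 CPM against 0.0174 to 0.0973 CPM), the latter not called without nurse library 1. Obp3 rose by 3.19 ± 0.52 (0.875 and 0.277 CPM against 0.0434 to 0.0818 CPM), a call lost without forager library 1, without either nurse library and without queen library 1. B-gluc1 rose by 1.33 ± 0.23 (11.4 and 7.49 CPM against 3.21 to 5.12 CPM, adjusted p = 0.00476), and was not called without forager library 1, forager library 2, nurse library 1 or queen library 1, nor once hemocyte-like cells were left out. The rest of the 15 largest changes belonged to LOC726134, LOC102656147, LOC724208, LOC725051, LOC100576841, LOC726934 and LOC725832, between 2.37 and 3.52 on the log2 scale, and the other 19 higher members, outside B-gluc1, rose by 1.02 to 2.36. Of these 7, LOC726134 and LOC724208 were not called without queen library 1 or either nurse library, LOC726934 without queen library 1 or nurse library 2, and LOC100576841 without nurse library 2. LOC102654766, Obp3 and LOC726134 had at most 9 UMIs in any worker library, so queens alone carried them past the filter.

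**Figure D3:**
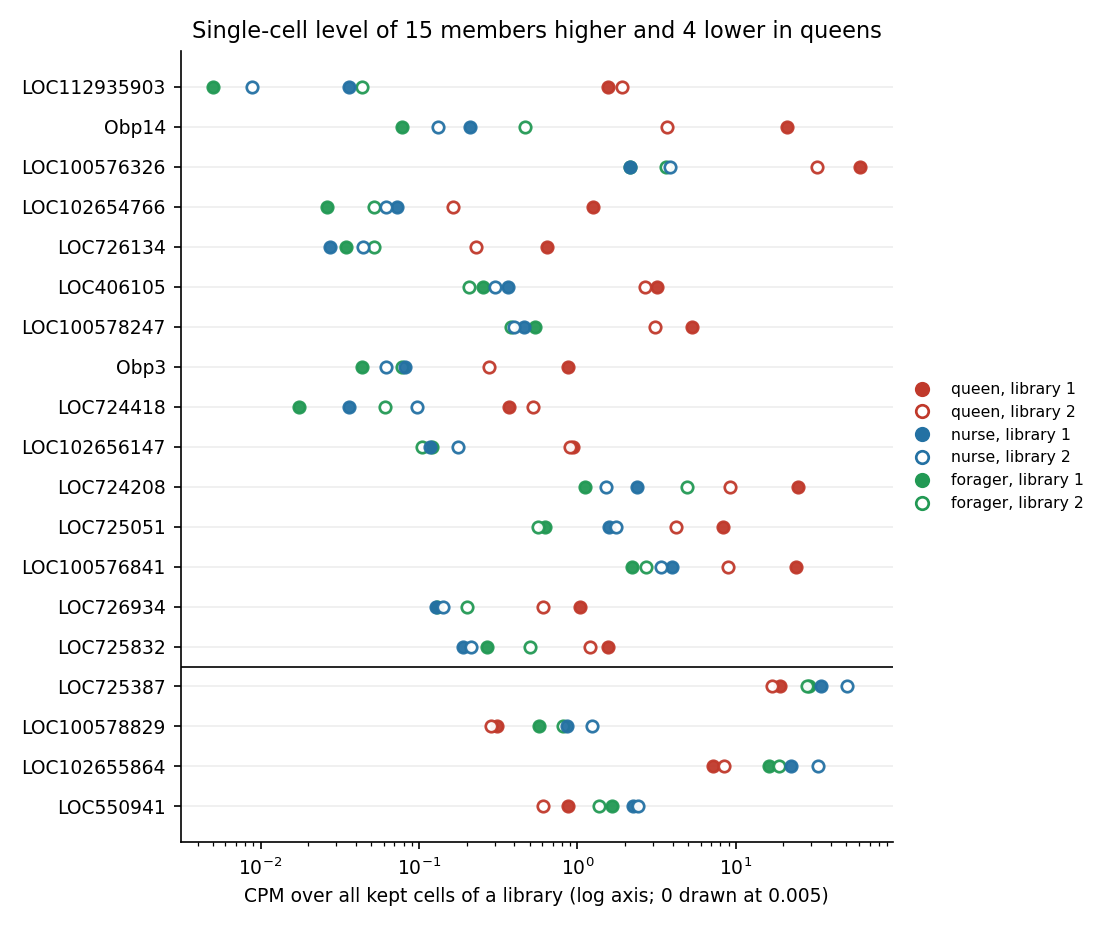
Single-cell CPM (log axis, 0 drawn at 0.005) over all kept cells of each library for the 15 members with the largest rise in queens (above the line) and the 4 called lower (below it), filled points for library 1 and open for library 2. Queen points lie right of all worker points for the 15 and left of them for the 4.

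Lower in queens were LOC725387, LOC102655864, LOC550941 and LOC100578829. LOC725387 was at 2860 and 2649 CPM in the bulk queen libraries and at 94.5 to 167.5 CPM in bulk workers. In single cells it was at 19.0 and 17.0 CPM in queens, 29.1 and 28.1 CPM in foragers and 34.8 and 50.1 CPM in nurses, and fell by 0.88 on the log2 scale (SE 0.15, adjusted p = 0.00367). The assays thus gave opposite directions, although this call was lost without either queen library. LOC102655864, an lncRNA, fell by 1.42 (SE 0.18, adjusted p = 0.00159), with 7.16 and 8.46 CPM in queens and 16.1 to 33.1 CPM in workers. In bulk it had 0.325 to 1.58 CPM in workers and 10.96 and 16.8 CPM in queens, so the directions differed here too. Its call was lost without queen library 1. LOC550941 fell by 1.28 and LOC100578829 by 1.44, and these calls were lost when any 1 library was left out.

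Of the 7 members with a gene name, Obp14, Obp3 and B-gluc1 were called. Jhe was at 5.41 and 6.09 CPM in queens, 9.28 and 7.62 CPM in foragers and 5.75 and 5.61 CPM in nurses, and its log2 change was -0.20 ± 0.20 (adjusted p = 0.334). Bulk Jhe in queens was thus not matched in single cells. The change of PGRP-S3 was 0.63 (adjusted p = 0.0566), that of Akhr 0.92 (adjusted p = 0.0484) and that of CPR14 1.09 (adjusted p = 0.108), all in edgeR. None of these met the threshold, which does not show that they were equal.

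**Figure D4:**
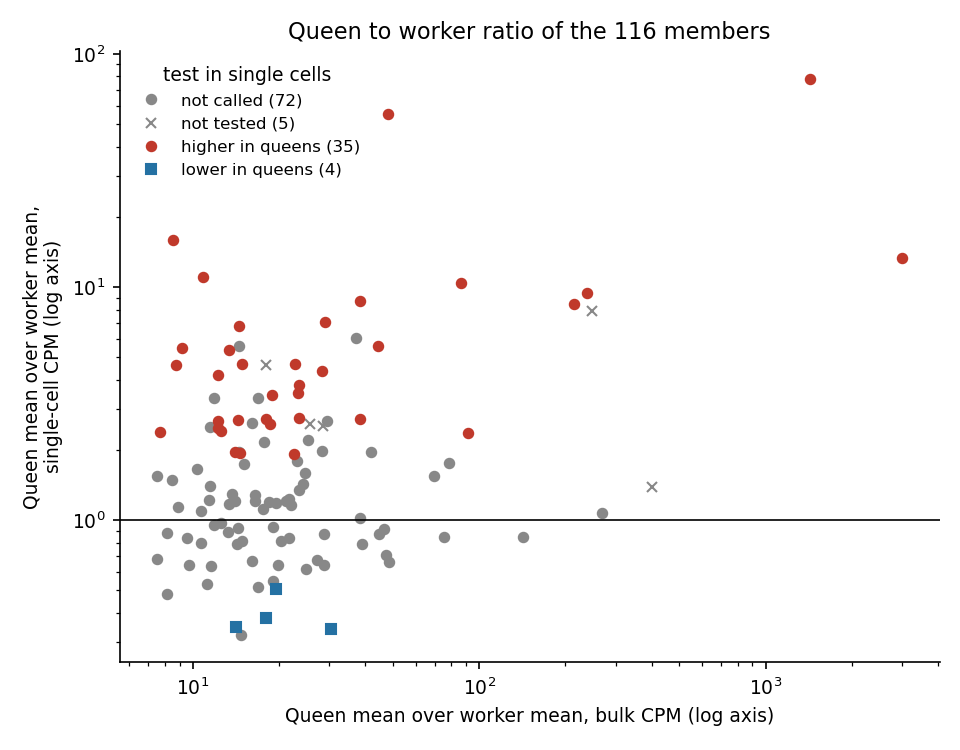
Mean queen over mean worker CPM in bulk (x, log axis) and in single cells (y, log axis) for the 116 members, coloured by the single-cell test: 35 higher in queens, 4 lower, 72 not called and 5 not tested. The horizontal line marks equal levels in single cells; 37 members lie below it although the rule put all of them above 6 on the bulk axis.

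Some members were neighbours in the genome (Amel_HAv3.1). Within 20 kb of another member lay 17 of them, in 7 groups. The largest group held 5 genes on chromosome 16 between 4736319 and 4768984: LOC102655781, LOC102655864, LOC102655928, LOC102656015 and LOC107963996, with 2 other genes between them. In bulk queens LOC107963996 reached 1988 and 3453 CPM, while the other 4 lay between 10.96 and 78.0 CPM. In single cells summed over all kept cells, LOC102655864 was called lower in queens, and the others had log2 changes between -0.17 and 0.38 with no call. LOC100578247 and LOC725720 on chromosome 1 were both called higher, as were LOC100576414 and LOC411910 on the same chromosome. The call of LOC411910 was lost without any 1 library and that of LOC100576414 without any 1 but queen library 2. In bulk, LOC725720 had 54.8 and 53.3 CPM in queens and 2.26 to 6.73 CPM in workers, LOC100576414 had 75.3 and 77.7 CPM against 3.25 to 9.14 CPM, and LOC411910 had 31.0 and 32.8 CPM against 1.3002 to 2.64 CPM. LOC411609 and LOC102656088 on chromosome 6 were neighbours too, with log2 changes of -1.49 (adjusted p = 0.0563) and -0.56 (adjusted p = 0.292) in single cells. The lncRNA LOC100577863 lies within LOC410484 on chromosome 14, and the lncRNA LOC102655158 within LOC726625 on chromosome 8. Whether bulk reads were counted by strand is not given in the sources used here, so within each of these pairs the reads may not be told apart. LOC410484 rose by 1.52 ± 0.23 in single-cell queens, a call lost without forager library 1, either nurse library or queen library 1, and LOC102655158 by 1.54 ± 0.30, a call lost without any 1 library.

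To place the members among cell types, the cells were clustered without the members and other genes that differed between castes. Clusters were named from marker genes: 7 clusters as Kenyon-like, 2 as OPN-like, 3 as glia-like (6672 cells, with repo, a transcription factor of glia) and 1 as hemocyte-like (340 cells, with hml, hemolectin). Of the glia-like clusters, 1 was led by immune genes and 1 by the opsin gene Lop1. A further cluster of 7789 cells had 8 enriched glial markers, 5 gland markers and 3 fat body markers. Such markers did not set it apart. The 3 glia-like clusters had 8, 4 and 8 enriched gland markers and 2, 0 and 2 of fat body, and the hemocyte-like cluster had 7 and 1. The further cluster was not named glia-like because its log2 fold of repo, 0.78, was under the limit of 1. That limit had been taken over from earlier work on these data. The cluster stayed unnamed, held 3.36% and 9.90% of the cells in queens and 2.98 to 9.71% in workers, and had a member sum of 1212 and 852.6 CPM in queens against 502.9 to 795.8 CPM in workers. Queen libraries held 166 and 32 hemocyte-like cells, and worker libraries between 12 and 94. Members summed were densest in hemocyte-like cells, with 7313 and 9270 CPM in queens and 3043 to 4228 CPM in workers, and next in glia-like cells, with 1961 and 1724 CPM in queens and 749 to 1016 CPM in workers. In neither class did these sums overlap between queens and workers. A few genes made up much of them in queens. In hemocyte-like cells these were Obp14 (1831 CPM), LOC724208 (1545 CPM) and LOC412663 (995 CPM), and in glia-like cells LOC725380 (477 CPM) and LOC725074 (424 CPM). The median member had 3.02 CPM in queens and 2.54 CPM in workers in hemocyte-like cells, and 3.51 and 1.55 CPM in glia-like cells. In Kenyon-like cells the sums did overlap, at 514.6 and 368.3 CPM against 303.6 to 482.9 CPM. Of 95 members with at least 100 queen UMIs, 37 (38.9%) had their highest queen CPM in hemocyte-like cells, which was also so for 28.5% of the 10224 other genes at that depth. For glia-like cells the count was 29 (30.5%, against 15.6% of the others), for OPN-like cells 21 (22.1% against 20.8%), for Kenyon-like cells 3 (3.16% against 22.2%) and for unnamed cells 5 (5.26% against 12.8%). In queens, hemocyte-like cells held 8.08% of the members' UMIs and 0.624% of all UMIs, and glia-like cells 7.82% and 2.49%. Most cells, 71761 of 115169, stayed unnamed. They held 49.3% of the members' UMIs and 53.6% of all UMIs in queens, and 62.8% of the members' UMIs in workers.

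Obp14 was the clearest case of a member tied to 1 class. In hemocyte-like cells it reached 1924 and 1313 CPM in queens, 54.3 and 98.8 CPM in foragers and 0 CPM in nurses (0 UMIs in 24 and 12 cells). These cells carried 89.7% of its UMIs in queen library 1 (95% Wilson interval 88.5 to 90.7%) and 74.4% in queen library 2 (70.2 to 78.3%). LOC724208 was also concentrated there, with 58.2% (56.6 to 59.8%) and 44.3% (41.5 to 47.3%), but worker hemocyte-like cells had it too, at 581 to 1062 CPM against 1469 and 1968 CPM in queens. LOC410824 (63.7 and 35.2%), LOC726134 (62.8 and 32.1%) and LOC726733 (55.6 and 18.5%) completed the 5 with the largest hemocyte-like share. That order pools the UMIs of both queen libraries, and the first, with 166 of the 198 cells, weighs most in it. Intervals cover counting error only. LOC410824 and LOC726733 overlapped between queens and workers in hemocyte-like cells, at 334 and 302 CPM against 115 to 421 CPM and at 139 and 86.2 CPM against 73.2 to 180 CPM. Among immune recognition genes, B-gluc1 was at 361 and 623 CPM in queen hemocyte-like cells and at 0 to 18.1 CPM in those of workers, and PGRP-S3 at 440 and 431 CPM against 16.1 to 70.6 CPM. Worker values rest on 12 to 94 cells. No test was run within this class.

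Outside hemocyte-like cells Obp14 and LOC724208 were found at low levels in every class in queens but 1 library of OPN-like cells for Obp14. In Kenyon-like cells Obp14 had 1.96 and 0.706 CPM in queens and 0.0254 to 0.224 CPM in workers, and LOC724208 had 10.7 and 5.01 CPM against 0.684 to 1.60 CPM. For both, the first queen library, which held more hemocyte-like cells, was the higher. How far RNA released by hemocyte-like cells adds to these values was not tested.

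The test of queens against workers was repeated on UMIs summed over glia-like cells (edgeR, 6 libraries). These sums pool the glia-like clusters, and the mix of clusters was not held equal between castes. Of 9265 genes tested, 5.55% were called higher and 3.72% lower in queens. The filter passed 73 members, of which 22 were called higher and 0 lower. At an unadjusted p under 0.05 the members were 47 higher, against 19.8% of all genes, and 1 lower, against 18.1%. DESeq2 called 27 of 116 higher, against 5.68% of all genes, and 0 lower, against 3.45%. Without the filter, 29 of the 116 were higher. The count of 22 fell to 13 without forager library 1, 14 without forager library 2, 11 without nurse library 1 and 9 without nurse library 2. LOC100576326 was at 72.3 and 43.0 CPM in queens and 3.94 to 7.91 CPM in workers (log2 change 3.53 ± 0.23, adjusted p = 5.2e-05). LOC726286, LOC725051 and LOC102653748 rose by 3.30 ± 0.30, 3.06 ± 0.32 and 2.94 ± 0.32. LOC725380 rose by 1.83 ± 0.22 (adjusted p = 0.00101), with 463 and 491 CPM in queens, 81.9 and 154 CPM in foragers and 216 and 166 CPM in nurses. LOC406105 rose by 4.597 ± 0.56. These 6 and LOC112935903 and LOC102655928 kept their calls without each library in turn.

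LOC724418 had 0 UMIs in the glia-like cells of all 4 worker libraries and 23 UMIs in those of queens, so queens alone carried it past the filter. The same held for LOC112935903 (2 UMIs in workers and 40 in queens), Obp14 (5 and 49) and LOC406105 (11 and 71). With 3 counts over the worker group taken as a floor, the ratio of queens to workers for LOC724418 was 26.2. That ratio pools libraries and leaves out counting error in queens, so it is not a lower limit. The call of LOC724418 was lost without either nurse library. Called in glia-like cells and not over all kept cells were 10 members: LOC102655781, LOC102655928, LOC102656015, LOC107963996, LOC413678, LOC550749, LOC552130, LOC725380, LOC726733 and PGRP-S3. Most of these calls were lost when single libraries were left out. The call of LOC726733 was lost without any 1 library, those of LOC102655781, LOC102656015 and LOC107963996 without any 1 but queen library 2, that of LOC413678 without any 1 but queen library 1 and that of LOC552130 without any 1 but forager library 2. LOC550749 was not called without either nurse library or queen library 2, and PGRP-S3 without queen library 2, whereas LOC725380 and LOC102655928 were called without each library in turn. Whether their change in glia-like cells differed from that over all cells was not tested, but their change was tested against that in Kenyon-like cells. PGRP-S3 had 35.7 and 51.3 CPM in queens and 8.28 to 18.9 CPM in workers (log2 change 1.90 ± 0.29, adjusted p = 0.00257). Of the 5 neighbours on chromosome 16, all but LOC102655864 were in this list. LOC102655928 had 49.7 and 18.7 CPM in queens against at most 6.29 CPM in workers, and LOC102655781 had 15.4 and 3.48 CPM against 0.606 to 1.98 CPM. In both the first queen library was the higher. By share of queen UMIs in glia-like cells, pooled over both libraries, LOC725380 (29.9% and 42.1%), LOC725074 (26.1% and 40.7%), LOC552130 (31.2% and 30.9%), LOC413678 (15.7% and 38.0%) and LOC726478 (19.2% and 30.8%) led.

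Sums over Kenyon-like cells pool clusters whose mix differed between castes. A cluster led in part by Mblk-1 held 1308 and 1064 cells in queens, 450 and 581 in foragers and 64 and 45 in nurses. The largest held 811 and 763 cells in queens and 1449 to 2303 in workers. How far this mix adds to a change was not tested. In Kenyon-like cells 7.9% of 10408 genes were called higher in queens and 6.99% lower. Here 91 members passed the filter, of which 17 were called higher and 1, LOC102655864, lower. Without the filter the counts over all 116 were 16 and 1. The 17 fell to 7 without forager library 1 and to 6 without forager library 2, either nurse library or queen library 1, and the 1 lower call was lost without queen library 1. LOC100576326 was again the most abundant of those higher, at 81.8 and 40.0 CPM in queens against 1.92 to 4.71 CPM in workers (log2 change 4.20 ± 0.39, adjusted p = 0.000806). LOC100576497 had 17.3 and 13.06 CPM against 2.18 to 2.80 CPM, LOC412663 had 14.9 and 10.2 CPM against 1.95 to 5.25 CPM, and LOC406105 had 3.33 and 2.14 CPM against 0.0357 to 0.352 CPM. LOC102655864 fell by 1.70 on the log2 scale (SE 0.22, adjusted p = 0.00205), with 6.21 and 7.19 CPM in queens and 13.4 to 40.7 CPM in workers.

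Whether the queen difference itself differed between these classes was tested as a class by caste term, with each library as a block. Of 10563 genes, 3.96% had a larger queen difference in glia-like cells and 0.606% a smaller one at an adjusted p under 0.01. Of 104 members tested, 8 had a larger difference in glia-like cells and 0 a smaller one. The count of 8 fell to 4 without queen library 1 and to 5 without queen library 2. Over all genes the count of larger differences fell as well, from 418 to 310 and to 188. LOC725380 rose in glia-like cells, as given above, while in Kenyon-like cells it had 27.0 and 13.04 CPM in queens, 21.7 and 51.0 CPM in foragers and 49.5 and 51.8 CPM in nurses. Its log2 changes differed by 3.003 ± 0.26 (adjusted p = 6.7e-05). LOC725074 had 469 and 379 CPM in glia-like cells of queens against 174 to 334 CPM in workers, and 30.9 and 10.8 CPM against 33.1 to 98.3 CPM in Kenyon-like cells, a difference of 2.52 ± 0.29. The glia-like cluster led by immune genes held 1.33% of all UMIs in queens and 1.88% in workers. All glia-like cells held 2.41 and 2.57% in the queen libraries and 2.87 to 7.16% in the worker libraries. In that cluster LOC725380 had 822 CPM in queens and 324 CPM in workers, and LOC725074 had 538 and 281 CPM. How far the mix of clusters adds to the differences between classes was not tested. For PGRP-S3 the difference was 1.95 ± 0.18, with overlapping castes in Kenyon-like cells (9.82 and 14.9 CPM against 9.32 to 17.0 CPM). LOC726286 was higher in queens in both classes, and more so in glia-like cells, by 1.71 ± 0.31. The other 4 were LOC102655781, LOC102655928, LOC107963996 and LOC552130, with differences between 2.58 and 3.94.

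**Figure D5:**
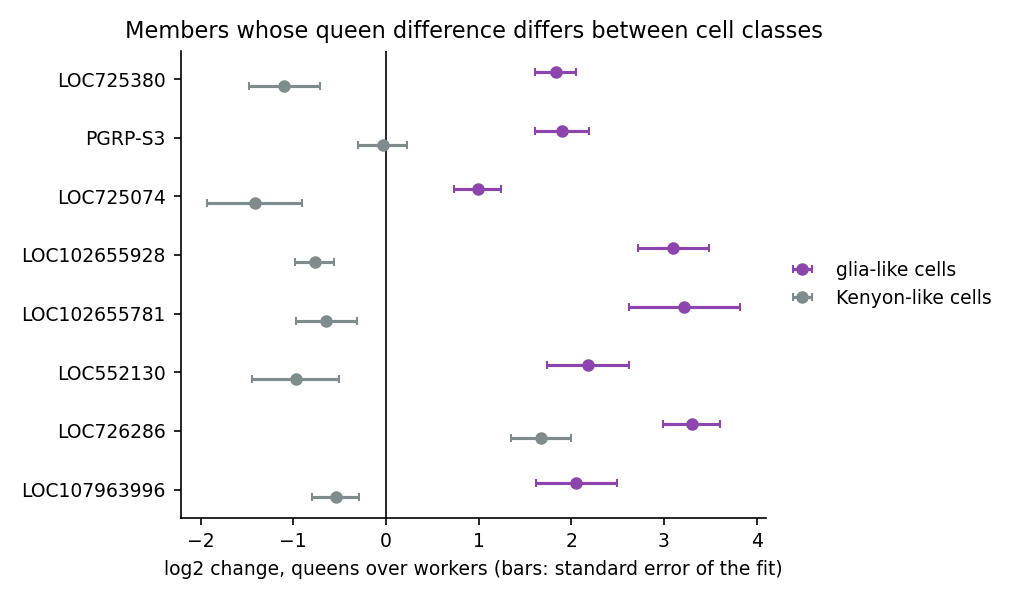
Log2 change of queens over workers (x) in glia-like and in Kenyon-like cells for the 8 members whose change differed between these classes. Points are edgeR estimates and bars standard errors derived from the F statistic of the test. All 8 glia-like points lie right of 0; in Kenyon-like cells LOC726286 lies at 1.67 and the other 7 lie left of 0.

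Nurses and foragers, both workers, were compared last. In bulk, 0.0% of 9932 genes were called higher in nurses and 0.0101% lower (edgeR, adjusted p under 0.01 and a log2 change over 1 in size), and 0 of the 116 members were called in either direction. At an unadjusted p under 0.05, 16 members were higher in nurses, against 7.79% of all genes, and 15 lower, against 5.57%. DESeq2 called 3 higher (0.441% of all genes) and 3 lower (0.405%). Nearest to the threshold, and picked out after their values were seen, were LOC412630 with 3.3 and 3.2 CPM in foragers and 16.8 and 16.5 CPM in nurses (log2 change 2.33 ± 0.20, adjusted p = 0.0105) and LOC100576555 with 26.0 and 22.2 CPM in foragers and 2.0 and 3.8 CPM in nurses (-3.05 ± 0.26, adjusted p = 0.0105). In single cells 0.0538% of 11158 genes were called higher and 0.0269% lower in nurses, and again 0 of 111 tested members. Here 16 members were higher at an unadjusted p under 0.05, against 13.5% of all genes, and 5 lower, against 10.5%. DESeq2 called 5 higher (2.86% of all genes) and 2 lower (1.23%). The rule put a ceiling on all worker bulk values. With 2 pools per caste, a missing call does not show that nurses and foragers were equal.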

How the data were processed

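Brain RNA of queens, nurses and foragers was read as 6 single-cell (10X) and 6 bulk libraries, grouped by the deposited caste labels. For single cells the authors ran Cell Ranger 3.1.0 on Amel_HAv3.1 and deposited raw UMI counts per gene and barcode. For bulk, per the submitters' processing notes and methods, the authors trimmed reads (Trimmomatic 0.39), aligned them (STAR) and deposited RSEM's expected counts per gene, which were rounded for tests. CPM were computed from these. Barcodes with 200 to 5000 genes, at least 500 UMIs, under 15% mitochondrial UMIs were kept, unless their UMIs exceeded the third quartile of their caste by over 1.5 interquartile ranges. Mitochondrial UMIs were those of 450 features with the deposited prefix MT-. Members LOC550687, LOC552130 and LOC100577053 carry this prefix, so their UMIs entered this filter. No doublet caller was run.

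Cells were clustered (3000 variable genes, 30 principal components, 20 neighbours, Leiden resolution 1, leidenalg 0.10.2) after 2448 genes, the members and genes differing between castes, had been left out. A cluster was named Kenyon-like, OPN-like, glia-like or hemocyte-like where at least 3 markers of that list were enriched (log2 fold over 0.5), by the list with the largest summed fold, and glia-like and hemocyte-like also needed a log2 fold over 1 of repo or hml. That limit came from earlier work on these data, in which it was set after clusters had been seen. Leaving gland, fat body, photoreceptor and optic lobe lists out of the naming was decided here once the clusters had been seen for the first 3 of these lists. It left unnamed 4 clusters with at least 3 enriched markers of some list (12759 of the 71761 unnamed cells). Of these 4, 2 (10196 cells), 1 with 8 glial markers, would otherwise have been called gland cells. UMIs were summed per library and tested with edgeR 4.0.16 in R 4.3.3 (quasi-likelihood, TMM, filterByExpr, 3 castes in 1 fit, two-sided, Benjamini-Hochberg over all genes tested). Calls needed an adjusted p under 0.01 and a log2 change over 0.5 (single cells) or 1 (bulk) in size. Standard errors (SE) of the edgeR caste tests were derived from the test, as the size of the log2 change over the square root of its F statistic. The edgeR tests of queens against workers in single cells and of nurses against foragers in bulk were run on simulated library counts. Of 2-fold changes, 67% were recovered over all kept cells, 65% in glia-like and in Kenyon-like cells, and 23% in bulk. Clustering, naming and the class by caste test were not simulated.

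Alternatives were RLE size factors, DESeq2 1.42.0, no filter, a replicate block, each library left out, all barcodes, clustering at resolution 0.5 and other limits of the rule. Leaving out hemocyte-like and glia-like cells, and the alternatives of the class by caste test, were added after the data had been seen. Members, lists and tests were chosen with earlier results of these data known. Named with values are the 12 members highest in bulk queens, the 15 largest called single-cell changes in each direction, the 5 largest glia-like and hemocyte-like UMI shares, the 3 genes on each side of the fold limit, members within 20 kb of another, and members with a gene name. Others named are the calls within a cell class and those said to be picked after their values were seen. A list of muscle genes could not be drawn up without gene descriptions, and it was not used here. All 116 members matched a RefSeq entry of Amel_HAv3.1.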

Additional observations from a re-analysis of the deposited data

Results flagged for a closer look

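For 8 members the log2 change of queens over workers differed between glia-like and Kenyon-like cells in the edgeR class by caste test. Glia-like minus Kenyon-like, the difference was 3.003 for LOC725380, 1.95 for PGRP-S3, 2.52 for LOC725074, 3.85 for LOC102655928, 3.94 for LOC102655781, 3.24 for LOC552130, 1.71 for LOC726286 and 2.58 for LOC107963996. All 8 were positive, and adjusted p-values lay between 6.7e-05 and 0.00572. Their log2 change in glia-like cells was between 0.99 for LOC725074, which was not called there, and 3.30 for LOC726286. In Kenyon-like cells LOC726286 was at 1.67, PGRP-S3 at -0.04 and the rest between -1.42 and -0.54.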

How the results depend on the processing

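For queens against workers over all kept cells, the counts of 35 higher and 4 lower members ranged from 16 to 34 and from 0 to 3 when each library was left out in turn. All 39 calls were shared with RLE size factors, with no filter and with DESeq2 (49 calls), and 32 with all deposited barcodes, where 1 lower call remained. In glia-like cells the 22 higher calls ranged from 9 to 20 and the 0 lower stayed 0 with each library left out. In Kenyon-like cells the 17 higher calls ranged from 6 to 21 and the 1 lower from 0 to 1, and DESeq2 called 3 lower. The 8 members with a larger difference in glia-like cells ranged from 4 to 7 with each library left out, and no filter gave 11. Nurses against foragers had 0 single-cell member calls with every library left out and 5 higher and 2 lower with DESeq2 (LOC726320, LOC550749, LOC725051, LOC113219195 and LOC102655781, and LOC725720 and Jhe). In bulk they had 1 higher (LOC412630) and 1 lower (LOC100576555) with RLE size factors and with no filter, 3 and 3 with DESeq2, and 0 to 1 lower (LOC100576555) with each library left out. The cause of these changes was not tested, but leaving out a library leaves fewer samples. A fold limit of 10 gave 64 members, and the other limits of the rule gave between 103 and 162.

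Replicate numbers did not pair the libraries (correlations of same-numbered deviations between -0.18 and 0.03). With the replicate block, members called higher and lower were 29 and 2 over all kept cells, 23 and 0 in glia-like and 13 and 1 in Kenyon-like cells, and 0 for nurses against foragers in both assays.

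Of 25 named members with a call over all kept cells, 8 kept it in every setting and 0 reversed. Reversals occurred among uncalled members near 0. With each library left out, LOC725305 ranged from -0.29 to 0.30, LOC552130 from -0.30 to 0.30, LOC100577863 from -0.26 to 0.0312, LOC102655781 from -0.00048 to 0.55 and LOC102655928 from -0.18 to 0.15 on the log2 scale. With all deposited barcodes LOC552130 was at 0.0922, LOC100577863 at 0.51 and LOC102655928 at 0.18, and without glia-like and hemocyte-like cells LOC725305 was at -0.0067. Members with few UMIs limit the single-cell test: 41 of 116 were under 1 CPM in queens.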
